A study of Mus musculus with 8 samples.

Results

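The ligand TRAIL, encoded by Tnfsf10, its signalling receptor Tnfrsf10b and the 3 receptor genes of a cluster on mouse chromosome 7, Tnfrsf26, Tnfrsf22 and Tnfrsf23, were examined in splenocytes of mice given all-trans-retinoic acid (tRA) and of control mice. They are 5 of the 51826 genes in the count table, were taken by name, and all passed the filter on low counts. The choice was made with the tRA against control results of these mice known, since Tnfrsf26 was chosen by its difference in counts between the same groups and the others for their relation to it. Differences between tRA and control are therefore given for the 5 genes as a description, without a test.

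TRAIL is a membrane-bound or shed cytokine of the TNF superfamily that is known from natural killer cells, activated T cells and myeloid cells. Its binding to a receptor with an intracellular death domain recruits Fadd and caspase-8 and can start apoptosis. Mice have a single such receptor, Tnfrsf10b, while Tnfrsf22 and Tnfrsf23 encode decoy receptors that bind TRAIL but lack a working death domain, and Tnfrsf26 encodes a related receptor from the same cluster.

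As a vitamin A metabolite, tRA acts through nuclear receptors. The RNA sequencing of the study was directed at genes responsive to it that have a part in activating dendritic cells. RNA was sequenced from total splenocytes of BALB/c mice, 4 given tRA and 4 control, all killed at 3 months of age and none injected with pristane. The mice of the tRA group were dosed every day after weaning with 1 mg/kg. The treatment note in the labels gives tRA to all 8 samples, whereas the sample titles separate tRA from control and the study describes the control mice as given vehicle, so the groups follow the titles. Gene counts summed to between 30919272 and 37539631 per control library and between 31810417 and 35165876 per tRA library. Levels are given as CPM, gene counts scaled to library size with TMM factors, or, to compare genes with each other, as RPKM, the CPM per kilobase of exon. Values are mean ± SD with n = 4 mice per group unless all 8 mice are named.

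Of the 5 genes, Tnfrsf26 was the only one whose tRA and control mice did not overlap, at 1.3-fold its control level, and 3.54% of all genes tested had groups apart in either direction. The decoy receptor genes Tnfrsf22 and Tnfrsf23, the signalling receptor and the ligand had overlapping groups. All 5 log2 fold changes were above 0, as were 50.3% of those of the 16484 genes tested, but that of Tnfrsf22 was -0.0095 when control replicate 2 was left out. The median of the 5 was 0.19, the value of Tnfrsf10b, beside 0.0014 for all genes tested. It was 0.12, again the value of Tnfrsf10b, when tRA replicate 4 was left out. Per length of exon, Tnfrsf26 was the most abundant of the 5 in every mouse and Tnfrsf23 the least. In bulk samples such as these, fewer cells of a type and less RNA per cell cannot be told apart.

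The ligand gene Tnfsf10 (ENSMUSG00000039304) lies on the plus strand of chromosome 3 at 27317028 to 27342427 in GRCm38. Its level was 14.1, 13.7, 15.1 and 15.5 CPM in control replicates 1 to 4. In tRA replicates 1 to 4 it was 12.9, 14.2, 18 and 17.7 CPM. The tRA mice lay on both sides of the control range, replicates 3 and 4 above it and replicate 1 below it. The group levels were 14.6 ± 0.844 CPM in control and 15.7 ± 2.55 CPM in tRA, a log2 fold change of 0.11 (SE 0.12). This value fell to 0.03 when tRA replicate 3 was left out and to 0.04 when tRA replicate 4 was, and it was 0.19 when tRA replicate 1 was left out. The counts behind these values ran from 421 to 665.

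The signalling receptor gene Tnfrsf10b (ENSMUSG00000022074) lies on the plus strand of chromosome 14 at 69767472 to 69784411. Control replicates 1 to 4 had 8.58, 7.84, 9.94 and 8.85 CPM. The tRA replicates 1 to 4 had 11, 10.9, 6.91 and 11.3 CPM. Of the tRA mice 3 lay above every control mouse, and replicate 3 lay below every control mouse. The group levels were 8.80 ± 0.869 CPM in control and 10 ± 2.09 CPM in tRA, with a log2 fold change of 0.19 (SE 0.161) that became 0.33 when tRA replicate 3 was left out and 0.12 when replicate 4 was. The counts ran from 252 to 371.

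The 3 cluster genes lie side by side on the minus strand of chromosome 7 within 78214 bases. Tnfrsf26 (ENSMUSG00000045362) spans 143607659 to 143628722, Tnfrsf22 (ENSMUSG00000010751) 143634806 to 143649661 and Tnfrsf23 (ENSMUSG00000037613) 143665809 to 143685872. The gap between the first pair is 6083 bases and that between the second pair 16147 bases. Their longest annotated coding sequences have 612, 594 and 528 bases, against 1143 bases for Tnfrsf10b, whose product has the death domain.

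Tnfrsf26 stood at 31, 32.2, 28.4 and 32.2 CPM in control replicates 1 to 4. It stood at 35.8, 41.2, 43.2 and 40.9 CPM in tRA replicates 1 to 4. Every tRA mouse was above every control mouse, and the nearest were tRA replicate 1 at 35.8 CPM and control replicates 2 and 4 at 32.2 CPM. All 4 tRA mice lay above all 4 control mice in 315 of the 16484 genes tested (1.91%), and the groups were apart in either direction in 584. The group levels were 30.9 ± 1.79 CPM in control and 40.3 ± 3.14 CPM in tRA, with a log2 fold change of 0.38 (SE 0.0795) from 982 to 1593 counts per library. Leaving out each mouse in turn gave 0.34 to 0.43.

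Across all genes, the quasi-likelihood test of edgeR called 0 of 16484 genes (0.0%) at an FDR under 0.1, and 1070 (6.49%) had an unadjusted p under 0.05. DESeq2 called 27 of 13625 genes (0.198%). When tRA replicate 4 was left out, edgeR called 3 genes. The number with an unadjusted p under 0.05 also moved with single mice, to 2105 of 16683 genes when tRA replicate 1 was left out and to 657 of 16732 when tRA replicate 4 was.

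Tnfrsf22, a decoy receptor gene, had 16.8, 13.8, 18.5 and 18.7 CPM in control replicates 1 to 4. It had 19.0, 16.8, 17.9 and 17.9 CPM in tRA replicates 1 to 4. The groups overlapped, and the lowest of the 8 mice was control replicate 2. The levels of 16.9 ± 2.28 CPM in control and 17.9 ± 0.879 CPM in tRA gave a log2 fold change of 0.08 (SE 0.107), which turned to -0.0095 without control replicate 2, was 0.13 without control replicate 4 and was 0.05 without tRA replicate 1. The counts ran from 442 to 659.

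Tnfrsf23, the other decoy receptor gene, was scarce, with 54 to 112 counts per library. Control replicates 1 to 4 had 1.65, 1.68, 2.14 and 2.39 CPM, and tRA replicates 1 to 4 had 1.74, 1.95, 3.04 and 2.93 CPM. In both groups replicates 3 and 4 were the higher pair, and the groups overlapped. The levels were 1.97 ± 0.361 CPM in control and 2.42 ± 0.664 CPM in tRA. The log2 fold change was 0.30 (SE 0.234), with 0.17 when tRA replicate 3 was left out and 0.20 when replicate 4 was.

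**Figure D1:**
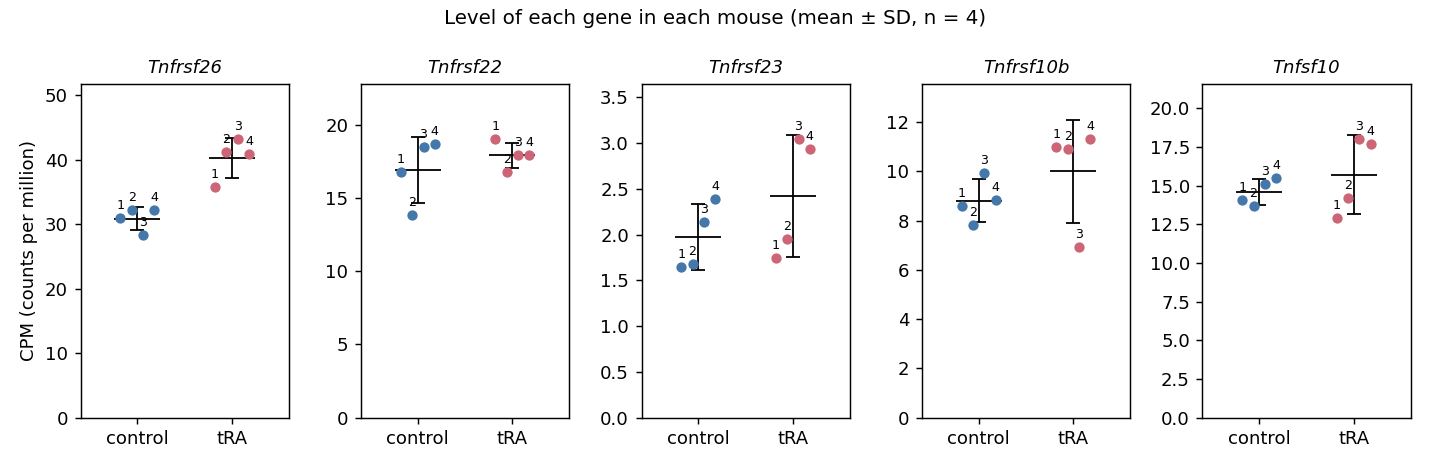
Level of each gene in CPM (vertical axis, starting at 0 and scaled per gene) in control and tRA mice, with replicate numbers beside the points and mean ± SD of 4 mice in black. The Tnfrsf26 points of the tRA mice, from 35.8 to 43.2 CPM, all sit above those of the control mice, from 28.4 to 32.2 CPM, and the other genes overlap.

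The levels of the 5 genes against each other were not used to choose them and were tested by RPKM, between neighbours in the order of their means and, added after the data were seen, between all 10 pairs. Over all 8 mice the levels were 11.1 ± 1.72 RPKM for Tnfrsf26, 4.13 ± 0.398 for Tnfrsf22, 2.88 ± 0.352 for Tnfsf10, 1.73 ± 0.297 for Tnfrsf10b and 0.553 ± 0.139 for Tnfrsf23. In each of the 10 pairs the gene with the higher mean was higher in 8 of 8 mice, with p = 0.00781 in a two-sided exact sign-flip permutation test (adjusted p = 0.00781 over the 4 neighbouring pairs and over all 10), the smallest p that 8 mice allow and so the same for each pair whatever its size. Tnfrsf26 was 2.66-fold above Tnfrsf22 in RPKM, and Tnfrsf22 was 1.44-fold above Tnfsf10. Tnfsf10 was 1.68-fold above Tnfrsf10b, and Tnfrsf10b was 3.17-fold above Tnfrsf23. The step between ligand and signalling receptor depended on the gene length used, as their log2 difference went from 0.75 to 0.04 (exact permutation p = 0.75) when the longest transcript replaced the union of exons.

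Within the cluster, Tnfrsf26 made up most of the summed RPKM. Its share was 68.1 ± 3.79% in control and 72.0 ± 2.03% in tRA. Tnfrsf22 made up 28.4 ± 3.4% and 24.5 ± 2.37%, and Tnfrsf23 made up 3.5 ± 0.547% and 3.48 ± 0.798%. The summed cluster level was 14.1 ± 0.616 RPKM in control and 17.4 ± 0.964 RPKM in tRA. Since Tnfrsf26 was chosen for its difference between the groups, the difference in the sum is in part set by that choice. Set against the signalling receptor, it was 8.8 ± 0.882 times the RPKM of Tnfrsf10b in control and 9.91 ± 3.08 times in tRA, where replicate 3, the mouse with the low Tnfrsf10b, had a ratio of 14.5 and the others 7.94, 8.68 and 8.51. For the decoy receptor genes Tnfrsf22 and Tnfrsf23 summed without Tnfrsf26, the ratio was 2.79 ± 0.229 in control and 2.75 ± 0.794 in tRA. All these ratios also depend on the gene length used. The union of exons of Tnfrsf10b, used here, has 5451 bases and its longest transcript 3179, with which the ratios would be lower.

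Tnfrsf22 and Tnfrsf23 are near-identical copies over part of their transcripts, so their counts are uncertain where reads could be assigned to either. Their coding sequences were the same at 479 of 528 aligned bases (90.7%). Their annotated transcripts shared 719 stretches of 50 bases, 17.3% of those of Tnfrsf22 and 18% of those of Tnfrsf23, and no such stretch was shared by any other pair of the 5 genes. The longest identical coding run is shown because a read inside it, taken without its mate, matches both genes. It has 102 bases, covers coding bases 421 to 522 of Tnfrsf22 and 391 to 492 of Tnfrsf23 in GENCODE M21, and reads 5′ to 3′ on the coding strand as follows.
Tnfrsf22 and Tnfrsf23: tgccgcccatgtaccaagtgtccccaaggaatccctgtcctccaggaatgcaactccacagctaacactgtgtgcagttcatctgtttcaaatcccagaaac

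An antisense gene, E230032D23Rik, runs on the plus strand across all of Tnfrsf22 and parts of Tnfrsf26 and Tnfrsf23. Its exons share 107 bases with those of Tnfrsf26, 164 with those of Tnfrsf23 and 0 with those of Tnfrsf22. It had 20 to 55 counts per library, at 1.16 ± 0.406 CPM in control and 0.979 ± 0.319 CPM in tRA. Whether counting used the strand is not given in the sources used here, and without it reads from the shared bases cannot be told apart.

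Genes around the cluster were measured beside it. The table held 37 other genes within 500 kb, of which 9 were tested. Their log2 fold changes ran from -0.24 to 0.12, 3 above and 6 below 0, with a median of -0.04. The edgeR test called 0 of the 9 at an FDR under 0.1, as it did of all genes tested. DESeq2 called 0, against 0.198% of all genes. In edgeR 0 of the 9 had an unadjusted p under 0.05, against 6.49% of all genes tested. On the lower side, Cars, a cysteinyl-tRNA synthetase gene 7569 bases away, had 41.4 ± 1.41 CPM in control and 42.5 ± 1.99 CPM in tRA. Beyond it, the histone chaperone gene Nap1l4 had 128 ± 9.83 CPM and 125 ± 3.39 CPM. On the upper side, Osbpl5, an oxysterol-binding protein gene 2890 bases away, had 46.0 ± 0.301 CPM and 46.8 ± 2.52 CPM, and the receptor gene Mrgpre had 12.6 ± 0.72 CPM and 12.1 ± 1.49 CPM. The difference between Tnfrsf26 and these neighbours was not tested.

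**Figure D2:**
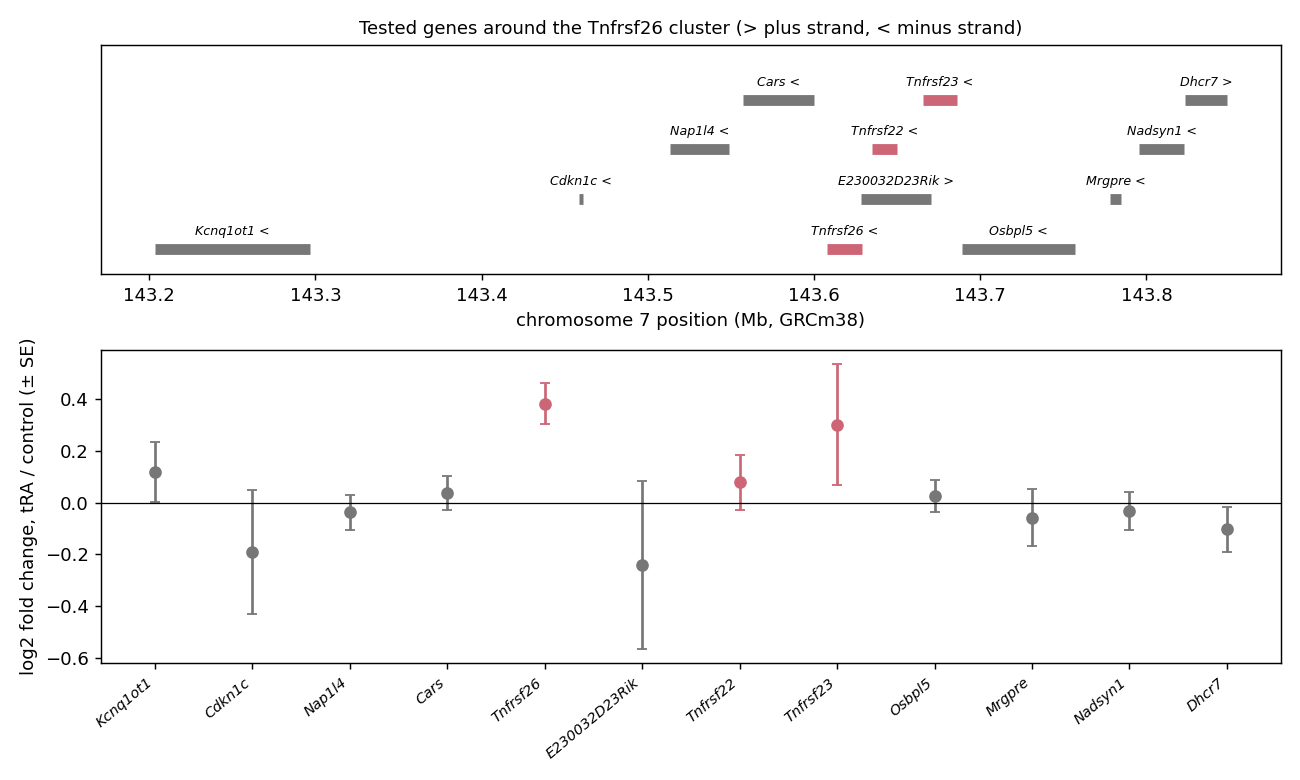
Upper panel, tested genes within 500 kb of the cluster on chromosome 7 in Mb, to scale, with the cluster genes in red and the others in grey. Lower panel, log2 fold change of tRA over control for the same genes in map order, with bars of 1 SE, where Tnfrsf26 is at 0.38 and the 9 neighbours lie between -0.24 and 0.12.

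Genes of TRAIL signalling and of the death pathway that it can start were taken as a list of 32, of which 31 were tested. Tnfrsf11b, which encodes a soluble TRAIL-binding receptor and had at most 6 counts in a library, was not tested. The edgeR test called 0 of the 31 at an FDR under 0.1, as it did of all 16484 genes tested. DESeq2 also called 0 of the 31, against 0.198% of all genes. There were 13 log2 fold changes above and 18 below 0, with a median of -0.02. An unadjusted p under 0.05 was found for 1 gene in edgeR (3.23%, against 6.49% of all genes tested) and for 1 in DESeq2. The edgeR number was 0 when control replicate 3 or tRA replicate 2, 3 or 4 was left out, and 3 (9.68%) when tRA replicate 1 was, a fit in which 12.6% of all genes had such a p. With all 8 mice it was Ripk1 in edgeR, a kinase of the receptor complex. Ripk1 had 58.1, 49.9, 53.1 and 55.6 CPM in control replicates 1 to 4 and 55.0, 62.0, 63.5 and 64.6 CPM in tRA replicates 1 to 4. Its groups overlapped through tRA replicate 1, and the log2 fold change was 0.18 (SE 0.0753, edgeR FDR 0.757).

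The core of the death-inducing complex was measured in both groups. The initiator caspase gene Casp8 had 132 ± 9.16 CPM in control and 143 ± 9.18 CPM in tRA. The adaptor gene Fadd had 8.76 ± 0.451 and 8.83 ± 0.91 CPM, and Cflar, which encodes the caspase-8 inhibitor c-FLIP, had 144 ± 11.8 and 147 ± 12 CPM. These 3 genes were named for their place in the pathway after their values were seen. Per length, the most abundant gene of the list was the survival gene Mcl1 at 248 ± 29.6 RPKM over 8 mice, and the least abundant was Tnfrsf11b at 0.0139 ± 0.0235 RPKM.

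The 5 genes were placed among the rest of the TNF superfamily by RPKM over 8 mice. Among 28 receptor genes Tnfrsf26 ranked 12th, Tnfrsf22 17th, Tnfrsf10b 20th and Tnfrsf23 23rd. Within the groups the ranks were 12, 17, 20 and 24 in control and 11, 16, 19 and 22 in tRA. The most abundant receptor gene was Tnfrsf13c, the BAFF receptor of B cells, at 81.1 RPKM, and the least abundant was Eda2r at 0.00317 RPKM. Tnfsf10 ranked 8th of 18 ligand genes, also within each group, of which the lymphotoxin gene Ltb was the most abundant at 296 RPKM and Cd70 the least at 0.00942 RPKM.

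**Figure D3:**
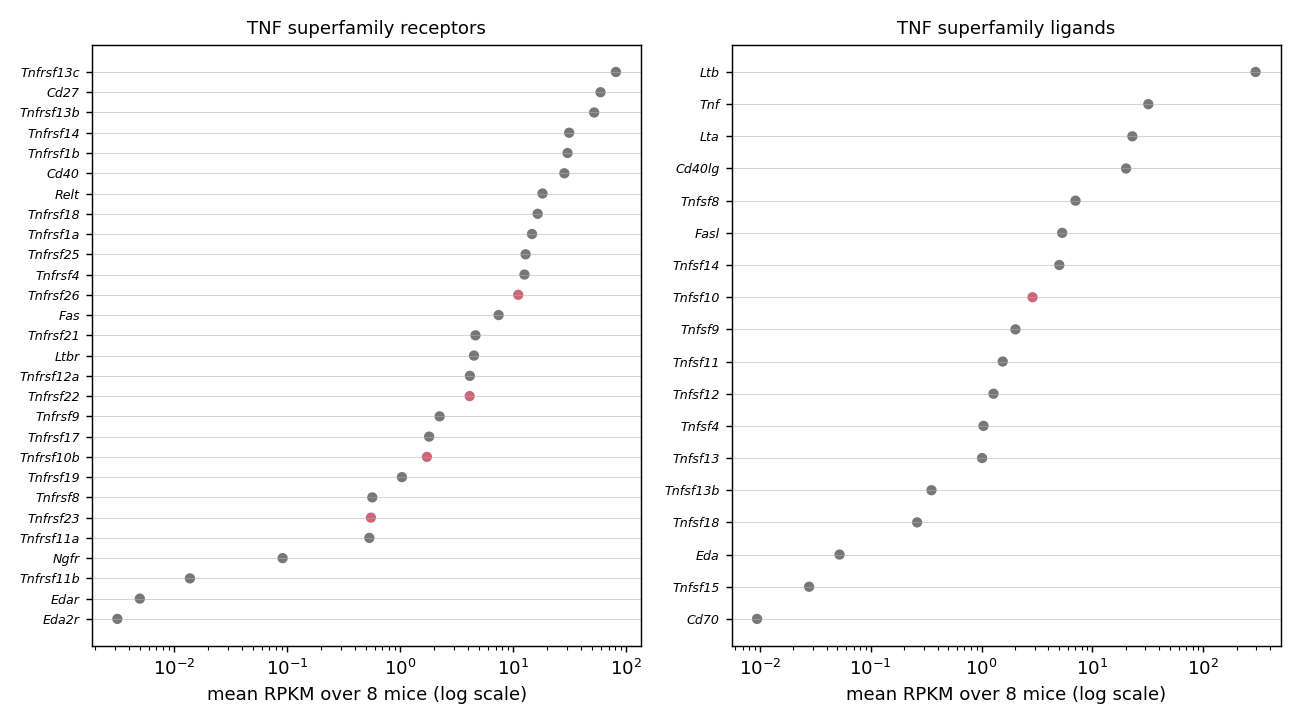
Mean RPKM over 8 mice (horizontal log axis) of 28 receptor and 18 ligand genes of the TNF superfamily, each gene a point, with Tnfrsf26, Tnfrsf22, Tnfrsf10b, Tnfrsf23 and Tnfsf10 in red. Tnfrsf26, at 11.1 RPKM, sits in the upper part of the receptors and Tnfrsf23, at 0.553 RPKM, in the lower part.

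None of the other superfamily genes passed an FDR under 0.1 in edgeR or in DESeq2, out of 15 ligand genes and 21 receptor genes tested. Over all genes, edgeR called 0 and DESeq2 called 0.198%. Of the ligands 6 had log2 fold changes above and 9 below 0 (median -0.11), and of the receptors 9 and 12 (median -0.04). An unadjusted p under 0.05 was found for 1 ligand and 1 receptor in edgeR, and for 2 ligands and 2 receptors in DESeq2. When any single mouse was left out, the edgeR number over both lists went from 2 to between 3 and 6 of 36, with 6 (16.7%) for control replicate 2, control replicate 4 or tRA replicate 1, in whose fits 6.78%, 6.35% and 12.6% of all genes had such a p. Over all genes and mice the share with such a p was 6.49% of 16484 in edgeR and 4.18% of 29805 in DESeq2, which had no prior filter on low counts. The ligand in edgeR was Lta, encoding lymphotoxin alpha, with 31.8, 37.0, 34.0 and 36.5 CPM in control replicates 1 to 4 and 24.6, 30.2, 29.0 and 30.6 CPM in tRA replicates 1 to 4. All tRA mice lay below all control mice, with a log2 fold change of -0.28 (SE 0.0888, edgeR FDR 0.757). The receptor was Tnfrsf17, the plasma cell receptor BCMA, with 1.41, 1.49, 2.74 and 1.81 CPM in control and 0.947, 1.2, 1.25 and 0.947 CPM in tRA. Its groups did not overlap either, at a log2 fold change of -0.78 (SE 0.256, edgeR FDR 0.757) from 31 to 95 counts. Over all genes tested, 3.54% had groups apart in either direction. The 5 plasma cell markers summed to 794, 760, 849 and 963 CPM in control and 577, 768, 651 and 642 CPM in tRA, with 2 log2 fold changes above and 3 below 0 and Jchain the most abundant. Of the 5, Jchain and Mzb1 had an unadjusted p under 0.05 in edgeR, at log2 fold changes of -0.46 and -0.32, and 0 passed an FDR under 0.1 in edgeR or DESeq2. Their part in the Tnfrsf17 values was not tested.

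The genes whose profile over the 8 mice was most like that of Tnfrsf26 were sought by the root mean square difference of log2 CPM after each gene's mean was removed. The closest were Slc12a3 at 0.0655, Zscan25 at 0.0713, Gm16534 at 0.075, Cand2 at 0.075 and Zfp62 at 0.0758, with a median of 0.288 over all other genes tested. None of the 5 lies on chromosome 7. Tnfsf10 was at 0.192 from Tnfrsf26, Tnfrsf22 at 0.239, Tnfrsf23 at 0.267 and Tnfrsf10b at 0.307. Most of the spread of Tnfrsf26 over the 8 mice is the difference between the groups for which it was chosen, and the 5 closest genes had log2 fold changes from 0.28 to 0.36, so the search returns genes that share this difference.

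For Tnfsf10 the closest profiles were those of Vps26b at 0.0541, Icos at 0.0548, Cep162 at 0.0609, Hjurp at 0.0619 and Syt11 at 0.0625, with a median of 0.251. Icos, a costimulatory receptor gene of activated T cells, had 19.7 ± 1.4 CPM in control and 21.1 ± 2.92 CPM in tRA.

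Marker genes of spleen cells were summed in each mouse because the libraries hold all splenocytes, and the leading gene of each list is the one with the highest mean CPM over 8 mice. B cell markers summed to 4760 ± 465 CPM in control and 4740 ± 136 CPM in tRA, with Cd79a the most abundant. T cell markers, led by Cd4, summed to 785 ± 82.1 and 858 ± 27 CPM, and natural killer cell markers, led by Gzma, to 298 ± 71.9 and 294 ± 16.1 CPM. Natural killer and T cells are known sources of TRAIL, and in both lists the summed levels overlapped between groups. Of the T cell genes 4 of 5 had log2 fold changes above 0, with a median of 0.13, and of the natural killer cell genes 2 of 5, with a median of -0.03, beside 0.11 for Tnfsf10. None of these 10 genes had an unadjusted p under 0.05 in edgeR or passed an FDR under 0.1 in edgeR or DESeq2, and their part in the Tnfsf10 values was not tested. Monocyte and macrophage markers, led by Csf1r, summed to 362 ± 65.4 and 372 ± 58.4 CPM. Dendritic cell markers, led by Itgax, summed to 140 ± 26.2 and 130 ± 14.9 CPM, and those of plasmacytoid dendritic cells, led by Tcf4, to 181 ± 11.7 and 170 ± 18 CPM. The sums of these lists overlapped between the groups as well. Of the 4 plasmacytoid genes 2 had an unadjusted p under 0.05 in edgeR, against 6.49% of all genes tested. These were Bst2 with a log2 fold change of -0.32 and Ccr9 with 0.45, and 0 passed an FDR under 0.1 in edgeR or DESeq2. The study's isolation of splenocytes included lysis of red blood cells, and erythroid markers, led by Hbb-bs, were spread widely at 1280 ± 827 and 1710 ± 1380 CPM. Platelet markers, led by Itga2b, summed to 7.32 ± 0.433 and 6.57 ± 0.527 CPM, and stromal and endothelial markers, led by Pecam1, to 245 ± 5.1 and 245 ± 4.96 CPM. No marker of these lists was at 0 in all libraries.

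The neutrophil precursor markers moved with the groups as Tnfrsf26 did, in the opposite direction. Their 6 genes, led by Ngp, summed to 490, 611, 650 and 553 CPM in control replicates 1 to 4 and 216, 265, 294 and 423 CPM in tRA replicates 1 to 4. All 6 log2 fold changes were below 0, and the sums did not overlap. Mature neutrophil markers, led by S100a9, summed to 399, 565, 511 and 456 CPM in control and 341, 325, 258 and 479 CPM in tRA, with 5 of 6 below 0 and overlapping sums. The edgeR test called 0 genes of either list at an FDR under 0.1. An unadjusted p under 0.05 was found for 6 of the 6 precursor genes and 3 of the 6 mature genes, against 6.49% of all genes tested. DESeq2 called 3 of the precursor genes and 0 of the mature genes, against 0.198% of all genes. Both lists were chosen with earlier results of these data known. Their part in the Tnfrsf26 values was not tested.

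Immediate early and heat shock genes, which respond to tissue handling as well as to stimulation, summed to 16400, 15500, 16300 and 13500 CPM in control and 14200, 12000, 5650 and 7970 CPM in tRA. All 10 log2 fold changes were below 0, with Fos the most abundant over 8 mice (3180 CPM in control, where Fosb had 3320 CPM, and 2220 CPM in tRA). Of the 10, 5 had an unadjusted p under 0.05 in edgeR, against 6.49% of all genes tested. At an FDR under 0.1, 0 passed in edgeR and 2 in DESeq2, which called 0.198% of all genes. The tRA replicates 3 and 4, with the lowest sums, were also the highest 2 mice for Tnfsf10 and Tnfrsf23, and tRA replicate 3 was the lowest for Tnfrsf10b. For Tnfrsf26, tRA replicate 3 was the highest mouse at 43.2 CPM, and tRA replicate 1, with the highest sum of the tRA mice, was the lowest of them at 35.8 CPM. Their part in these values was not tested.

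The tumour suppressor p53 is known to raise the signalling receptor gene, so a list of its targets was also measured. The p53 targets, led by Trp53inp1, summed to 498 ± 19.8 CPM in control and 515 ± 39.8 CPM in tRA, with 5 log2 fold changes above and 4 below 0 and 1 of 9 with an unadjusted p under 0.05 in edgeR, against 6.49% of all genes tested. That gene was Bbc3, which was lower in tRA, at 27.9 ± 1.76 CPM in control and 18.8 ± 6.4 CPM in tRA. Its log2 fold change was -0.57 (SE 0.195, edgeR FDR 0.757). By mouse the sums were 527, 492, 489 and 482 CPM in control replicates 1 to 4 and 535, 521, 457 and 545 CPM in tRA replicates 1 to 4. The lowest of the 8 was tRA replicate 3, which also had the lowest Tnfrsf10b at 6.91 CPM, and the part of these genes in that value was not tested. The targets were not all low in that mouse. Trp53inp1 (119 CPM), Sesn2 (17.4 CPM), Bbc3 (12.9 CPM) and Cdkn1a (3.66 CPM) were at their lowest of the 8 mice, Zmat3 was at its highest (22.1 CPM), and the others were at neither. Neither edgeR nor DESeq2 called a gene of this list at an FDR under 0.1.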

How the data were processed

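The deposited values are whole-number counts per Ensembl gene, made by the authors from TruSeq v2 libraries. The study's methods name Bowtie2/Tophat2 and HTSeq, whereas the submitters' processing notes name STAR 2.5.2b, featureCounts 1.5.1 and GRCm38. A deposited table of the authors' DESeq2 comparison (fold changes and p-values) was not used. Of 51826 gene IDs, 51633 matched GENCODE M21. edgeR 4.0.16 (filterByExpr, TMM, quasi-likelihood test, Benjamini-Hochberg over 16484 genes) was fitted to 4 tRA and 4 control libraries after being tested on simulated data. DESeq2 1.42.0, limma-voom 3.58.1, other scalings and filters, a replicate block and leaving out each library were alternatives. The members and gene lists were chosen with earlier results of these data known. Named genes are the 5 members, list genes with an unadjusted p under 0.05, the most and least abundant of each list per length, the 2 nearest tested neighbours on each side, the 5 most similar profiles of Tnfrsf26 and of Tnfsf10, and the most abundant marker of each list. Casp8, Fadd, Cflar, Bst2, Ccr9, Mzb1, Bbc3, Cdkn1a, Sesn2, Zmat3 and the antisense gene were added after their values were seen. The result of a further marker list is not reported here.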

Additional observations from a re-analysis of the deposited data

Results flagged for a closer look

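Each group of 4 mice was searched for a value set apart from the rest of its group, in 48 groups, and 2 held such a value, against about 2.4 that chance alone gives. Tnfrsf10b in tRA replicate 3 was at 6.91 CPM, with the next tRA mouse at 10.9 CPM. The summed natural killer cell markers in tRA replicate 4 were at 270 CPM, with the next tRA mouse at 299 CPM.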

How the results depend on the processing

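The count of genes past an FDR under 0.1, 0 in edgeR with TMM, was 27 in DESeq2, 6 without a filter on low counts and 1 in limma-voom, and 0 to 3 when each mouse was left out in turn; the cause was not tested. It was 0 for the TRAIL signalling genes, the other superfamily genes and the cluster neighbours in every alternative run. Where a run called 0 of all genes, a 0 for these lists was fixed and says nothing about them. DESeq2 called 0.198% of all genes, so its 0 in lists this short says little. Leaving out each mouse gave log2 fold changes of 0.34 to 0.43 for Tnfrsf26, -0.0095 to 0.13 for Tnfrsf22, 0.17 to 0.43 for Tnfrsf23, 0.12 to 0.33 for Tnfrsf10b and 0.03 to 0.19 for Tnfsf10. In the other alternatives all 5 stayed above 0. The number of genes with groups apart, 584, ran from 531 to 778 with other scalings and filters. The log2 difference of Tnfsf10 over Tnfrsf10b per length was 0.0444 with the longest transcript as length, by construction of the lengths. With the replicate number as a block, 0 genes passed, 0 TRAIL signalling genes and 4 other superfamily genes had an unadjusted p under 0.05 (all genes 7.28%), and the log2 fold changes were 0.38, 0.09, 0.28, 0.17 and 0.09 for Tnfrsf26, Tnfrsf22, Tnfrsf23, Tnfrsf10b and Tnfsf10. Deviations of same-numbered mice correlated at 0.157, -0.0229, -0.014 and 0.259, so the numbers were not taken to pair mice. Tnfrsf23, at 54 to 112 counts, is the member most limited by depth.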
